A study of Mus musculus with 18 samples.

Results

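The ovaries of 3-day-old female pups born to hyperhomocysteinemic dams were compared with the ovaries of control pups 4 days older. Hyperhomocysteinemia (HHcy), a raised level of homocysteine in blood, was produced in C57BL/6J dams by chow holding 3% methionine, the amino acid from which homocysteine is made, given from before mating to the end of lactation. Control dams ate normal chow, and both were mated with males on normal chow. The comparison took the 3 libraries of ovaries collected at postnatal day (Pd) 3 from daughters of HHcy dams (F1-HHcy Pd3) and the 3 libraries of Pd7 ovaries from daughters of control dams (F1-control Pd7), chosen by their titles, 6 of the 18 libraries in the series. All pups were wild type, none was treated directly, and all 6 libraries belong to the batch that the labels number 1. Each library was made from the polyadenylated RNA of whole ovary, so that oocytes, somatic cells and blood were read together. The labels do not say which pups shared a dam, and diet and age differ together between the groups, so that their parts in any difference cannot be told apart. F1-control Pd3 and F1-HHcy Pd7 libraries of the same batch, 3 each, served only for reference.

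In the mouse, primordial follicles form around birth, each with a small oocyte arrested in meiotic prophase and a layer of flat pregranulosa cells. A first group of follicles in the centre of the ovary starts to grow almost at once, while the others rest until they are activated over the life of the animal. Activation runs through KIT ligand from the pregranulosa cell, KIT on the oocyte, the PI3K-AKT pathway and the export of the transcription factor FOXO3 from the oocyte nucleus. The growing oocyte makes the proteins of its zona pellucida, the growth factors GDF9 and BMP15 and the stores used by the early embryo, and its granulosa cells divide and begin to secrete anti-Müllerian hormone (AMH). The series asks how the diet of the dam bears on this activation, and a comparison with older controls asks how far the Pd3 ovaries of the diet group lie from control ovaries in which more follicles have begun to grow.

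The 6 libraries held between 34470738 and 36583782 fragments on genes, recovered from the deposited FPKM values (fragment counts divided by gene length and by library size), and depth did not separate the groups. Both groups carried the defining transcripts of an ovary. The oocyte gene Dppa3 stood at 319, 529.9 and 628 FPKM in the F1-HHcy Pd3 libraries and at 549.6, 785 and 329.7 FPKM in the F1-control Pd7 libraries, and Foxl2, the transcription factor that defines granulosa cells, at 66, 57.8 and 56.1 and 47.7, 45.7 and 61.9 FPKM. Markers of multiciliated and oviduct cells summed to 59.5 to 99.1 FPKM in F1-HHcy Pd3 and 59.4 to 79.7 FPKM in F1-control Pd7 over 17 genes, most of it from Ccno, and no marker of that list was at 0 in all 6 libraries. Adipocyte markers summed to 25 to 47.8 and 36.4 to 55.6 FPKM over 12 genes. Replicate 3 of F1-HHcy Pd3 stood apart from its group, and list medians that change sign or size without it are given with and without it. Among the controls, replicate 1 of F1-control Pd7 carried the most hemoglobin RNA (0.346% of fragments, against 0.0947% and 0.0563% in the other two and 0.0468% to 0.0672% in F1-HHcy Pd3), and replicate 2 the most mitochondrially encoded RNA (5.65% of fragments, against 3.64% to 4.26% in the other five libraries).

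No gene separated the groups at the threshold used. limma was fitted to 13222 genes, those that reached 1 FPKM in 3 or more of the 6 libraries, and called 0 higher and 0 lower in F1-HHcy Pd3 at a Benjamini-Hochberg adjusted p under 0.05 and a difference above 0.58 on the scale of log2(FPKM + 1), that is 0% in each direction, and the smallest adjusted p was 0.936. At an unadjusted p under 0.05, 171 genes passed, of which 35 (0.265%) were higher and 42 (0.318%) were lower by more than 0.58. limma-voom on the recovered fragments also called 0 genes, with 53 higher and 32 lower at the unadjusted threshold. The median log2 difference over all genes was 0.03. In 602 genes (4.55%) every F1-HHcy Pd3 library lay above every F1-control Pd7 library, and in 311 genes (2.35%) every one lay below.

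A p that misses the threshold does not show that the groups were alike, so the 95% interval of each difference was read as well. For 6338 genes (47.9%) the whole interval lay within 0.58 of zero on the log2 scale, and for 11930 genes (90.2%) it lay within 1. For the remaining genes the interval reached beyond 0.58, because the difference was large, the interval wide, or both. The median standard error of a difference was 0.19, and the median SD between replicates on the log2 scale was 0.189 in F1-HHcy Pd3 and 0.218 in F1-control Pd7, against 0.133 in F1-control Pd3 and 0.141 in F1-HHcy Pd7.

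Other pairs of groups from the same batch, fitted in the same way, give the background to these counts. They share libraries with the comparison made here, so only the values of each pair are set side by side. F1-control Pd3 against F1-control Pd7, an age difference without the diet, had 762 genes higher (5.71%) and 807 lower (6.05%) of 13336 tested. F1-HHcy Pd3 against F1-control Pd3, the diet difference at the same age, had 210 genes higher (1.58%) and 167 lower (1.26%) of 13277. Between F1-HHcy Pd7 and F1-control Pd7 there were 750 genes higher (5.64%) and 729 lower (5.48%) of 13299. The pair compared here was thus the only one of these 4 in which limma called 0 genes. It also had the largest median standard error, 0.187 against 0.161, 0.149 and 0.170 in the other pairs, in the order given. The number of calls is therefore not a measure of closeness alone. Genes with an interval within 0.58 numbered 5650, 7126 and 5287 in the other pairs, in the order given, against 6338 here. This count was thus not the highest in the pair compared here. An interval within 1 was found for 83.8%, 85.6% and 81.3% of genes, against 90.2% here.

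The first principal component of the 500 most variable genes in the 12 libraries of batch 1 held 79.4% of their variance, and it ran from the F1-control Pd3 libraries (between -35.8 and -29.0) to the F1-HHcy Pd7 libraries (between 28.8 and 30.5). Both groups compared here lay between these ends. The F1-HHcy Pd3 libraries stood at 18.5, 4.43 and -19.1, and the F1-control Pd7 libraries at -6.54, 0.136 and 12.1. The range of the first group thus enclosed that of the second, with replicate 1 beyond every F1-control Pd7 library and replicate 3 on the side of the F1-control Pd3 libraries. On the second component (8.21% of the variance) replicate 3 of F1-HHcy Pd3 lay at -18.1, below all other libraries.

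**Figure D1:**
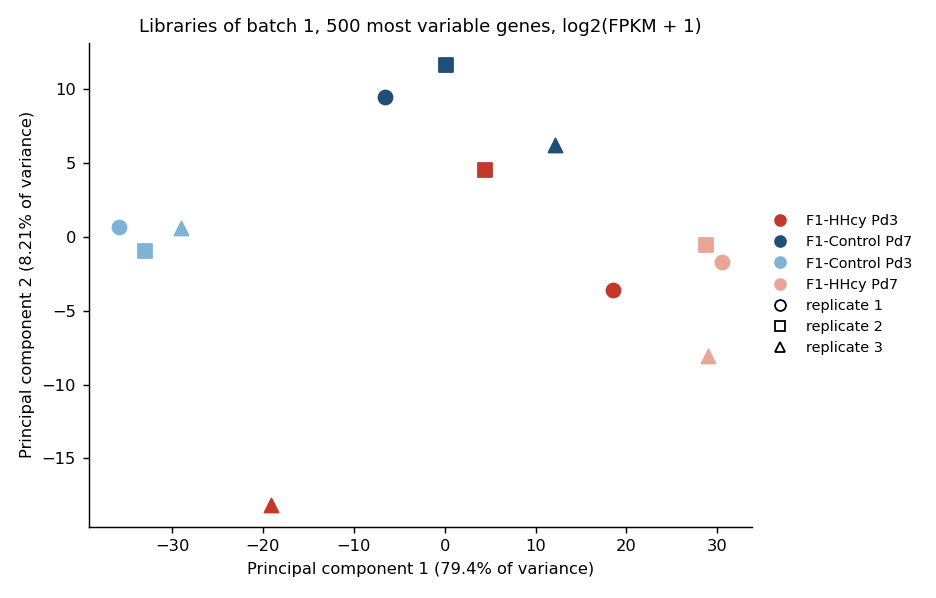
First and second principal components of log2(FPKM + 1) over the 500 most variable genes in the 12 libraries of batch 1, coloured by group and with a marker for each replicate number. The F1-HHcy Pd3 libraries spread from -19.1 to 18.5 on the first component and enclose the F1-control Pd7 libraries at -6.54 to 12.1, while F1-control Pd3 and F1-HHcy Pd7 lie at the opposite ends.

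Genes of the growing oocyte were far lower at Pd3 than at Pd7 in controls, and their levels in F1-HHcy Pd3 overlapped those in F1-control Pd7. All 28 genes of the list, which holds zona pellucida proteins, oocyte growth factors and maternal effect genes, passed the filter. None passed the test, none separated the groups without overlap, and 26 of 28 had a difference below 0, with a median of -0.30 on the log2 scale beside 0.03 over all genes. Their summed level was 3784, 4476 and 2753 FPKM in the 3 F1-HHcy Pd3 libraries and 3582, 5674 and 4431 FPKM in the 3 F1-control Pd7 libraries, against 1552, 1677 and 2266 FPKM in F1-control Pd3. Without replicate 3 of F1-HHcy Pd3, the lowest of its group, the median of the list was 0.07. In bulk tissue, fewer oocytes and less RNA per oocyte cannot be told apart.

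Zp2, which codes for a structural protein of the zona pellucida, stood at 488, 728 and 444 FPKM in F1-HHcy Pd3 and at 591, 906 and 578 FPKM in F1-control Pd7. Zp3, another protein of this coat, read 369.5, 474 and 288 against 354, 689 and 479 FPKM. Neither gene separated the groups, the differences being -0.32 ± 0.27 (SE) and -0.40 ± 0.29 on the log2 scale. In F1-control Pd3 the same genes read 202, 226 and 321 and 130.1, 163 and 217 FPKM, and both were lower there than in F1-control Pd7 (log2 difference -1.46, limma adjusted p = 0.0067, and -1.55, adjusted p = 0.00754). Padi6, a maternal effect gene needed for the cytoplasmic lattices of the oocyte and the most abundant of the list with Zp2, read 479.6, 687 and 587 against 541, 928 and 739 FPKM. Ooep, of the subcortical maternal complex, had the smallest p of the list and read 281, 385 and 208 against 374, 567 and 299.8 FPKM, a difference of -0.50 ± 0.30. The highest value of each of these 4 genes was in replicate 2 of F1-control Pd7.

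The oocyte ligands showed how far single libraries differed. Gdf9 read 215, 168 and 83.9 FPKM in F1-HHcy Pd3 and 111, 195 and 294 FPKM in F1-control Pd7. Bmp15, its partner in signalling to granulosa cells, read 34, 20.1 and 3.7 and 14.3, 14.8 and 26.3 FPKM. In both genes replicate 3 of F1-HHcy Pd3 was the lowest of the 6 libraries, and replicate 1 of F1-HHcy Pd3 and replicate 3 of F1-control Pd7 were the highest of their groups. The intervals were therefore wide, -1.34 to 0.63 for Gdf9 and -1.83 to 1.21 for Bmp15. In some genes, of which a pair is given here for this pattern after the values were seen, replicate 3 lay far from its group, which was not so for Zp2. Obox5, an oocyte homeobox gene, read 44.3, 24.5 and 2.32 FPKM in F1-HHcy Pd3, 22, 17.9 and 31.4 FPKM in F1-control Pd7 and 0.0216, 0.213 and 0.369 FPKM in F1-control Pd3, and Oosp1, an oocyte-secreted protein, read 125, 89.7 and 11, 83.7, 102 and 101 and 3.09, 3.61 and 7.01 FPKM. For both, replicates 1 and 2 of F1-HHcy Pd3 lay within or above the F1-control Pd7 range, and replicate 3 lay between the control ages.

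Of the 28 genes, 2 had an interval within 0.58, a smaller share than among all genes. They were Nlrp4f (63, 80.0 and 87.5 against 71.1, 86.1 and 70.8 FPKM, interval -0.38 to 0.40) and Khdc3, also of the subcortical maternal complex (16.1, 15.9 and 14.8 against 11.9, 21.2 and 17.1 FPKM, interval -0.53 to 0.41). In F1-control Pd3 against F1-control Pd7, 23 of 28 members were lower (6.05% of all genes) and 0 higher, with a median of -1.88. Obox5 was under 1 FPKM in every F1-control Pd3 library. It therefore passed the filter of that pair only through F1-control Pd7 and had to be lower. In F1-HHcy Pd3 against F1-control Pd3, 11 were higher (1.58% of all genes) and 0 lower, with a median of 1.60. There Obox5 passed the filter only through F1-HHcy Pd3.

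**Figure D2:**
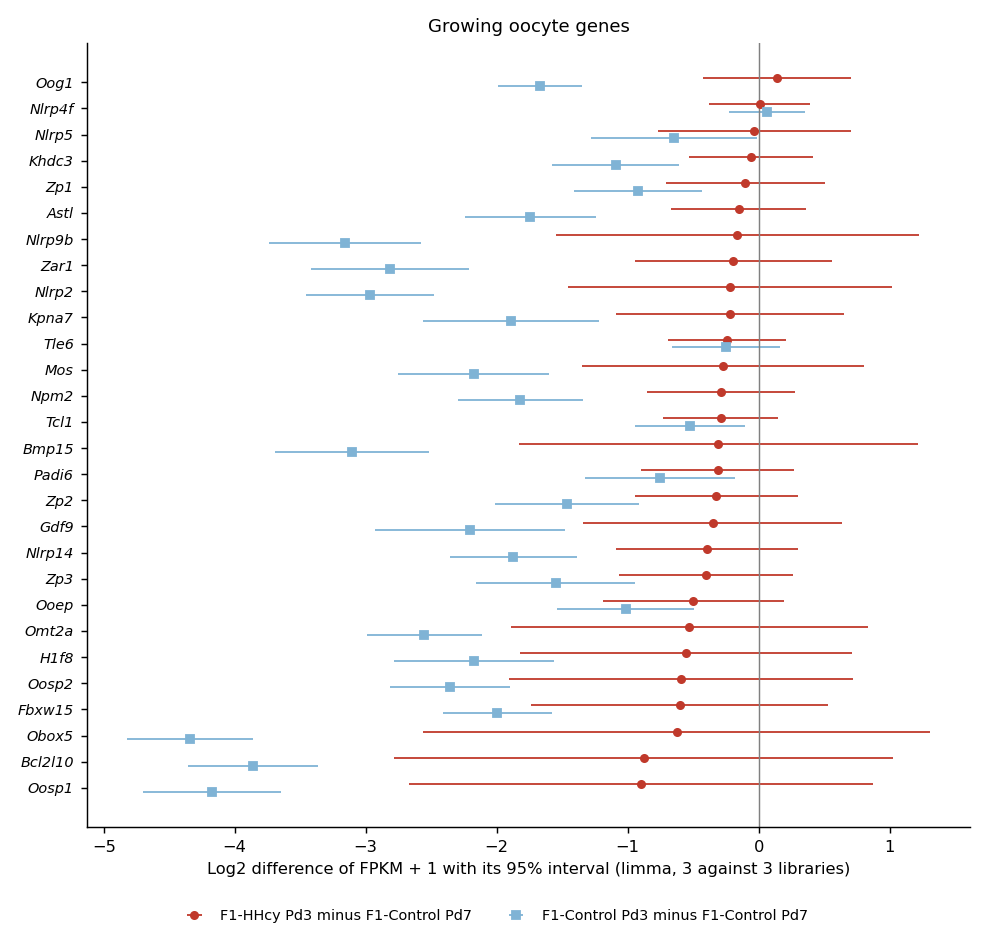
Log2 difference of FPKM + 1 with its 95% interval from limma for the 28 growing oocyte genes, in F1-HHcy Pd3 minus F1-control Pd7 (circles) and F1-control Pd3 minus F1-control Pd7 (squares), 3 libraries a group, with a line at no difference. Every circle has an interval that holds 0, with a median of -0.30, whereas the squares have a median of -1.88.

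Markers of the primordial oocyte and the germ line likewise overlapped between the groups. Of 18 genes on the list 17 were tested and 0 passed, 7 lay above 0 and 10 below, and the median was -0.07 (-0.27 without replicate 3 of F1-HHcy Pd3 and 0.28 without replicate 1). Nobox, a transcription factor needed for the survival of primordial oocytes, read 42.4, 62.1 and 117 FPKM in F1-HHcy Pd3 and 65.8, 95 and 60.3 FPKM in F1-control Pd7. Figla, which is needed for primordial follicles to form, read 20.8, 43.7 and 60.7 and 50.9, 78.6 and 31.1 FPKM. For both, replicate 1 of F1-HHcy Pd3 was the lowest of the 6 libraries. Taf4b (0.37 ± 0.24), Pou5f1 (-0.29 ± 0.22) and Rbm46 (0.29 ± 0.33) had the smallest p of the list with Figla and did not pass either. Kit, the receptor on the oocyte, read 20.5, 36.5 and 65.5 against 42, 27.4 and 25.7 FPKM, and Kitl, its ligand from granulosa cells, 40.2, 46.6 and 36 against 40.0, 34.9 and 37.8 FPKM. The interval of Kitl lay within 0.58 (-0.22 to 0.44), whereas that of Kit did not (-0.65 to 1.13). Between the control ages 10 of the 17 genes were higher at Pd3, where 5.71% of all genes were, Kit among them (1.13, limma adjusted p = 0.00585).

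Meiotic prophase genes, which code for the synaptonemal complex, cohesins and recombination enzymes, had a median of 0.05 (-0.20 without replicate 3 of F1-HHcy Pd3) over 18 tested genes of 28, and 0 passed. Sycp3, a lateral element protein of the synaptonemal complex and the most abundant of the list, read 32.5, 84.4 and 178 FPKM in F1-HHcy Pd3 and 103, 112 and 44.9 FPKM in F1-control Pd7. Syce2, of its central element, read 50.9, 63 and 46.2 and 59.2, 87.8 and 57.1 FPKM. Rec8, a meiotic cohesin, read 5.99, 12.5 and 4.01 and 14, 7.69 and 6.66 FPKM. Within F1-HHcy Pd3 the list ran in the opposite order to the growing oocyte genes, with replicate 1 lowest and replicate 3 highest (-0.55, 0.07 and 0.57 relative to the mean of F1-control Pd7, as mean log2 levels of the list). The F1-control Pd7 libraries stood at 0.18, 0.19 and -0.37 and the F1-control Pd3 libraries at 1.05, 1.08 and 0.82. In F1-control Pd3 against F1-control Pd7, 13 of the 22 genes past the filter of that pair were higher (5.71% of all genes) and 0 lower. Only 18 genes of the list passed the filter in the comparison made here. Members that passed only in the control pair needed F1-control Pd3 libraries to do so, where the list was high. The filter thus bore on their direction.

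**Figure D3:**
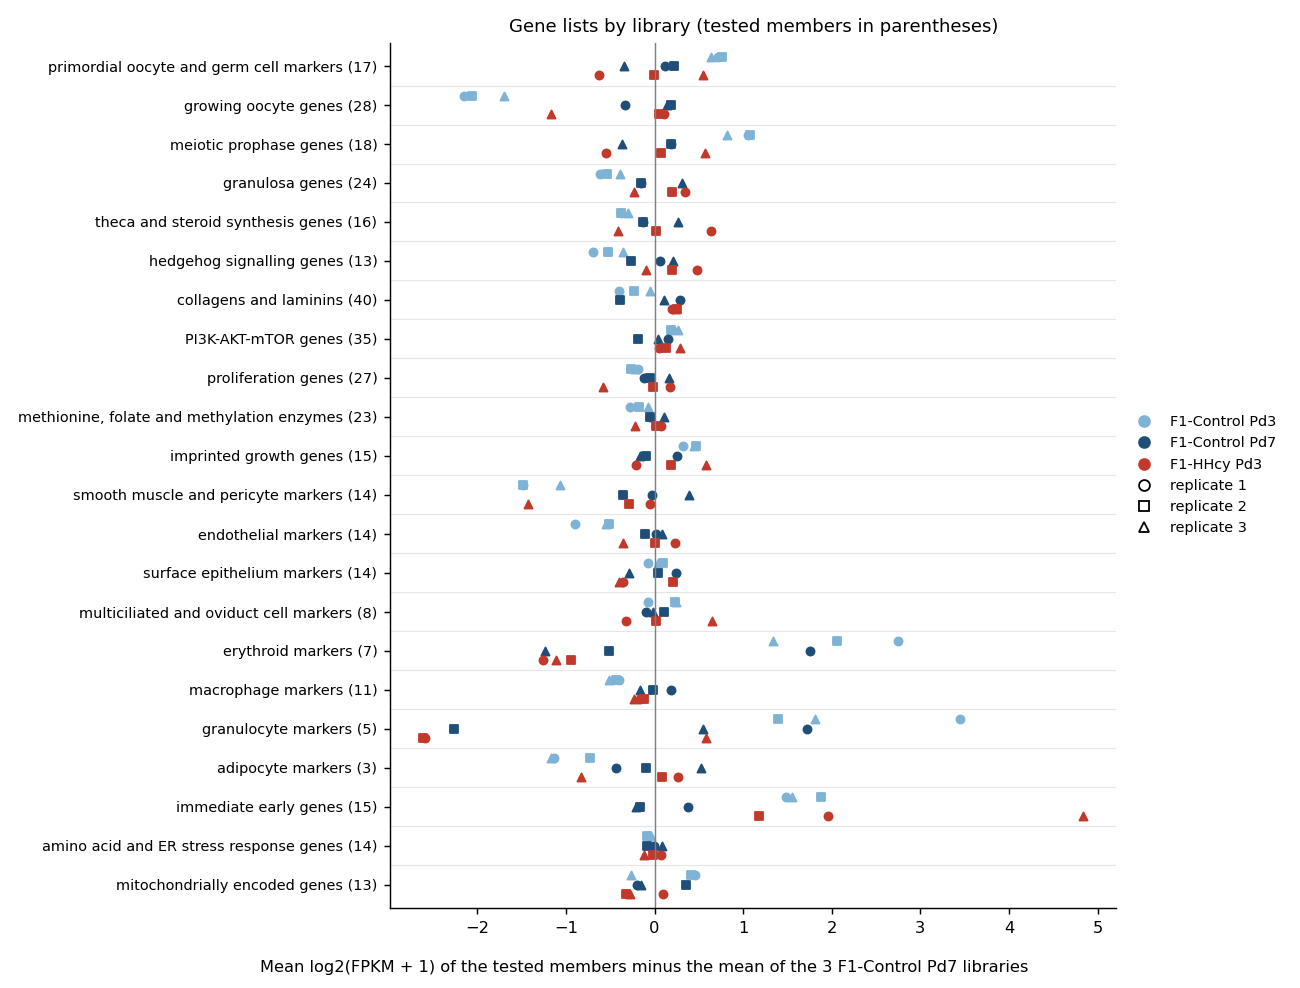
Mean log2(FPKM + 1) of the tested members of each of 22 gene lists in each library, minus the mean of the 3 F1-control Pd7 libraries, for F1-control Pd3, F1-control Pd7 and F1-HHcy Pd3. For immediate early genes the F1-HHcy Pd3 libraries (1.96, 1.17 and 4.84) all lie above the F1-control Pd7 libraries, and replicate 3 of F1-HHcy Pd3 lies at -1.43 for smooth muscle genes, among the F1-control Pd3 libraries.

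Granulosa genes were close in their median and wide in their spread. Of 24 tested genes 0 passed, 14 lay above 0 and 10 below, and the median was 0.13 (0.04 to 0.25 when 1 library was left out). Amh, the hormone secreted by granulosa cells of growing follicles, read 99.7, 35.2 and 9.72 FPKM in F1-HHcy Pd3 and 20.5, 23.8 and 76.1 FPKM in F1-control Pd7, against 1.65, 2.08 and 2.51 FPKM in F1-control Pd3. The means of the groups compared differed by less than their SDs (48.2 ± 46.4 and 40.1 ± 31.2 FPKM, SD, n = 3 each), but the interval of the difference ran from -1.85 to 1.81 and leaves either direction possible. Amhr2, the receptor of AMH, read 62.2, 76.9 and 82.3 against 70.1, 67.3 and 60.9 FPKM with an interval within 0.58 (-0.20 to 0.50). Against F1-control Pd3, Amh was higher in F1-HHcy Pd3 (log2 difference 3.47, limma adjusted p = 0.0453).

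Inha, which codes for the alpha subunit of inhibin, followed the order of Amh within each group, with 211, 106 and 79.9 FPKM in F1-HHcy Pd3 and 70.2, 99.6 and 242 FPKM in F1-control Pd7. Replicate 1 of F1-HHcy Pd3 and replicate 3 of F1-control Pd7 were the highest of their groups for both genes. Bmp2, a ligand made by pregranulosa cells, had the smallest p of the list and did not overlap, at 1.9, 1.46 and 2.9 against 1.07, 0.976 and 1.12 FPKM (0.56 ± 0.20). Npr2, the guanylyl cyclase that holds the oocyte in meiotic arrest, read 29.7, 21.4 and 23.6 against 22.1, 13.5 and 23.1 FPKM, and its ligand Nppc 3.18, 5.09 and 5.35 against 1.75, 4.99 and 3.73 FPKM. Gatm, a creatine synthesis enzyme and with Inha the most abundant of the list, differed by -0.01 ± 0.19, and Wnt4, the signal that specifies the ovarian soma, had an interval of -0.41 to 0.40. Between the control ages the granulosa list moved in both directions, with 6 genes higher and 11 lower at Pd3 of 24 (5.71% and 6.05% of all genes).

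Theca and steroid synthesis genes gave 0 calls among 16 tested and a median of 0.13, which was 0.001 without replicate 1 of F1-HHcy Pd3 and 0.25 without replicate 3. Cyp17a1, the theca enzyme that makes androgens, was high in single libraries, at 43.3, 1.06 and 0.552 FPKM in F1-HHcy Pd3 and 0.837, 0.599 and 9.03 FPKM in F1-control Pd7. Hsd3b1, a dehydrogenase of the same pathway and the most abundant of the list, read 604, 339.9 and 61.6 and 205, 276 and 420.5 FPKM. In both, replicate 1 was the highest and replicate 3 the lowest of the F1-HHcy Pd3 libraries, and replicate 3 the highest of the F1-control Pd7 libraries. Nr5a1 (SF-1), the transcription factor of steroidogenic cells, did not overlap but differed little, at 28.8, 28.4 and 29.2 against 25.1, 24.1 and 26.8 FPKM (0.18 ± 0.12, interval -0.09 to 0.46). The interval also lay within 0.58 for Star, which carries cholesterol into mitochondria (-0.41 to 0.46), and for Srd5a1 (-0.31 to 0.42). Aldh1a1, a retinaldehyde dehydrogenase, read 124, 138 and 166 against 131, 166 and 95.7 FPKM. Cyp1b1 (0.19 ± 0.19) and Enpep (-0.33 ± 0.40) were also among the members with the smallest p.

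Hedgehog signalling, by which ligands of granulosa cells act on the stroma that forms the theca, had a median of 0.25 over 13 tested genes, 12 of them above 0, and 0 calls. The ligand Dhh read 4.36, 3.24 and 0.593 FPKM in F1-HHcy Pd3 and 2.14, 3.04 and 4.79 FPKM in F1-control Pd7, and Ihh 4.42, 1.09 and 0.304 and 0.312, 0.371 and 3.47 FPKM. Ptch1, their receptor and also a target of the pathway, read 33.3, 21.3 and 18 against 17.4, 15 and 18.5 FPKM, a difference of 0.45 ± 0.22. Replicates 1 and 2 of F1-HHcy Pd3 lay above all F1-control Pd7 libraries for Ptch1, and replicate 3 lay within their range. The coreceptor Boc (16.2, 19.2 and 23 against 16.9, 11.8 and 12.7 FPKM) and the inhibitor Sufu (0.28 ± 0.16) were also among the members with the smallest p, and the interval of Smo, which carries the signal across the membrane, lay within 0.58 (-0.28 to 0.38). Ptch1 was higher in F1-HHcy Pd3 than in F1-control Pd3 (1.25, limma adjusted p = 0.032) and lower in F1-control Pd3 than in F1-control Pd7 (-0.81, adjusted p = 0.00674). The median of the list was 0.08 without replicate 2 of F1-control Pd7, which was the lowest library of the list in its group.

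Collagens and laminins, the matrix and basement membrane proteins of the ovary, were above 0 in 37 of 40 tested genes with a median of 0.21, and 0 passed. The list level was lowest in replicate 2 of F1-control Pd7, at 0.29, -0.39 and 0.10 for the 3 libraries relative to their mean, against 0.20, 0.25 and 0.24 in F1-HHcy Pd3. Without that control library the median was 0.05, where all genes in the same fit had a median of 0.0017. Col18a1, a basement membrane collagen, read 40.2, 43.8 and 52 against 40.6, 25.7 and 32.8 FPKM (0.46 ± 0.19), and Col16a1, which did not overlap, 15.5, 15 and 17.7 against 14.2, 7.84 and 12.9 FPKM (0.47 ± 0.22). Col3a1 and Col1a2, fibrillar collagens and the most abundant of the list, differed by 0.05 ± 0.18 and 0.20 ± 0.25. The narrowest intervals within 0.58 were those of Lamb1 (-0.16 to 0.57), Lama4 (-0.31 to 0.40) and Col26a1 (-0.35 to 0.45). Col1a2 was higher in F1-HHcy Pd3 than in F1-control Pd3 (1.14, limma adjusted p = 0.0307), as were 11 of 40 members in all, where 1.58% of all genes were.

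Genes of the PI3K-AKT-mTOR pathway, through which a primordial oocyte is activated, gave 0 calls. Of 35 genes, all tested, 29 lay above 0 with a median of 0.16 (0.06 to 0.25 when 1 library was left out), and 13 had an interval within 0.58, where 47.9% of all genes did. Foxo3, the factor that holds the primordial oocyte at rest, read 17, 21.8 and 28.3 FPKM in F1-HHcy Pd3 and 22.2, 15.2 and 14.2 FPKM in F1-control Pd7 (0.36 ± 0.23, interval -0.18 to 0.89). Akt1, the kinase that drives FOXO3 out of the nucleus, read 57.9, 58.9 and 72.9 against 61.7, 57.8 and 58.9 FPKM, and its interval lay within 0.58 (-0.24 to 0.40). Mtor, the kinase of the growth pathway, did not overlap but differed by only 0.25 ± 0.15, at 8.94, 8.51 and 10.3 against 8.36, 6.58 and 8 FPKM. Rps6, the ribosomal protein phosphorylated downstream of mTOR, read 1044, 866 and 777 against 849, 1299 and 974 FPKM (-0.20 ± 0.24). These are levels of mRNA, and the phosphorylation through which the pathway acts was not measured in these libraries. Pik3cd (0.37 ± 0.20), Igf1r (0.44 ± 0.27) and Irs2 (0.64 ± 0.40) had the smallest p of the list with Mtor, and Irs2 was highest in replicate 3 of F1-HHcy Pd3 (3.65, 3.85 and 11.6 against 4.61, 2.16 and 3.19 FPKM). The intervals of Akt1s1 (-0.21 to 0.41) and Pik3ca (-0.18 to 0.48) were the narrowest besides Akt1. Foxo3 was higher in F1-control Pd3 than in F1-control Pd7 (31.6, 29.1 and 34.4 FPKM, log2 difference 0.87, limma adjusted p = 0.013).

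Proliferation genes were below 0 in 24 of 27 members with a median of -0.12, and 0 passed. The list was lowest in replicate 3 of F1-HHcy Pd3 (0.17, -0.01 and -0.58 relative to the F1-control Pd7 mean), and without that library the median was 0.08. Pcna, the sliding clamp of DNA replication and the most abundant of the list, read 247, 213 and 116 FPKM in F1-HHcy Pd3 and 228, 274 and 246 FPKM in F1-control Pd7. Rrm2, a subunit of ribonucleotide reductase, read 25.4, 22.8 and 11.4 against 28.9, 23 and 25.5 FPKM. For both genes the other two F1-HHcy Pd3 libraries lay close to or among the controls. Mcm7 (-0.28 ± 0.21) and Ccne1 (-0.27 ± 0.22) were next in p, and the intervals of E2f1 (-0.47 to 0.18), Bub1 (-0.29 to 0.41) and Ccnb2 (-0.37 to 0.29) lay within 0.58.

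Enzymes of methionine, folate and methyl group metabolism, which handle the dietary amino acid and homocysteine, had a median of -0.05 (0.06 without replicate 3 of F1-HHcy Pd3) over 23 tested genes of 29, and 0 passed. Gnmt, the glycine methyltransferase that consumes S-adenosylmethionine, did not overlap between the groups, at 1.18, 1.11 and 1.41 FPKM in F1-HHcy Pd3 and 1.79, 2.19 and 2.01 FPKM in F1-control Pd7 (-0.43 ± 0.16). In F1-control Pd3 it read 0.716, 1.51 and 1.13 FPKM, so that both Pd3 groups lay below the Pd7 controls. Gamt (-0.38 ± 0.23), Ahcyl2 (0.32 ± 0.20) and the DNA methyltransferase Dnmt3a (0.34 ± 0.23) followed in p. Mat2a and Mat2b, the catalytic and regulatory subunits of the enzyme that makes S-adenosylmethionine and the most abundant of the list, read 73.8, 73.6 and 68.4 against 75.5, 56.2 and 80.9 FPKM and 82.7, 79 and 89 against 80.5, 90.6 and 74.7 FPKM. Of the 23 tested genes 10 had an interval within 0.58, where 47.9% of all genes did. The narrowest were those of Shmt2 (-0.28 to 0.29), Mat2b (-0.28 to 0.34) and Ahcyl1 (-0.22 to 0.40).

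Amino acid and ER stress response genes had a median of -0.01 (-0.10 to 0.08 when 1 library was left out) and 0 calls. Of 14 tested genes 9 had an interval within 0.58, where 47.9% of all genes did. All 14 had one within 1, where 90.2% of all genes did. Asns, the asparagine synthetase induced when amino acids are short, did not overlap, at 12.5, 11.3 and 11.5 against 14.2, 14.2 and 16.5 FPKM (-0.32 ± 0.13). Atf4, the transcription factor of this response, read 98.3, 77.1 and 111 against 86.5, 87 and 84 FPKM, and Hspa5, a chaperone of the endoplasmic reticulum, 423, 347 and 226 against 313, 298 and 380.4 FPKM. Herpud1 (-0.11 to 0.57), Xbp1 (-0.52 to 0.21) and Psat1 (-0.34 to 0.35) had intervals within 0.58, and Phgdh differed by -0.21 ± 0.16.

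Imprinted growth genes had a median of 0.12 over 15 tested genes (-0.06 to 0.43 when 1 library was left out) and 0 calls. H19, a noncoding RNA expressed from the maternal allele, spread from 102 FPKM in replicate 1 through 235 FPKM in replicate 2 to 678 FPKM in replicate 3 of F1-HHcy Pd3, against 267, 274 and 123 FPKM in F1-control Pd7. In F1-control Pd3 it read 551, 637 and 640.0 FPKM, so that replicate 3 lay above the Pd3 controls and replicate 1 below the Pd7 controls. Peg10 (0.63 ± 0.35), Meg3 (0.78 ± 0.51), Igf2r (0.30 ± 0.22) and Sgce (-0.12 ± 0.13) had the smallest p. Gnas (-0.45 to 0.24) and Plagl1 (-0.30 to 0.38) had intervals within 0.58, as did Sgce (-0.43 to 0.19).

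Immediate early genes, which are transcribed within minutes of many stimuli and code mostly for transcription factors and for inhibitors of signalling, had differences far from the median of all genes, and 0 calls. All 15 tested members of 17 had differences above 0, with a median of 2.57 on the log2 scale beside 0.03 over all genes, yet 0 passed the adjusted test. At the unadjusted threshold 10 of them passed where 0.265% of all genes did, and in 13 of them every F1-HHcy Pd3 library lay above every F1-control Pd7 library, where 4.55% of all genes did. Fosb reached 1 FPKM in F1-HHcy Pd3 but in no F1-control Pd7 library, so it passed the filter only through the group where it was high and had to differ. The other 14 members had a median of 2.38, with 14 above 0, 12 without overlap and 9 past the unadjusted threshold. The remaining pair of the list, Egr2 and Egr3, fell under the filter. The list was assembled with earlier results of these data known. Without replicate 3 of F1-HHcy Pd3 the median was 1.59, above 0 as with that library.

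Fos, the first subunit of the AP-1 factor, read 59.7, 26.6 and 818 FPKM in F1-HHcy Pd3 and 4.28, 1.41 and 1.58 FPKM in F1-control Pd7. Replicate 3 was the highest by far, and replicates 1 and 2 were still above all controls at Pd7. The difference was 5.12 ± 1.09 on the log2 scale, and 3.68 without replicate 3. In F1-control Pd3, Fos read 44.5, 53.6 and 38.4 FPKM, in the range of replicates 1 and 2. Egr1, a zinc finger factor and the most abundant of the list with Fos, read 138, 78.4 and 536 against 28, 10.5 and 15.1 FPKM, with 114, 94.6 and 88 FPKM in F1-control Pd3. Jun, the partner of FOS in AP-1, read 79.7, 65.4 and 467 against 27.4, 11.3 and 10.5 FPKM, with 53.8, 99.1 and 83.5 FPKM in F1-control Pd3. For Egr1 and Jun, as for Fos, all 3 F1-HHcy Pd3 libraries lay above the F1-control Pd7 libraries, and the F1-control Pd3 libraries overlapped the range of F1-HHcy Pd3.

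Fosb had the smallest levels in F1-control Pd7 (0.349, 0.03 and 0.0724 FPKM) and read 22.3, 2.92 and 259.9 FPKM in F1-HHcy Pd3. Dusp1, a phosphatase that switches off MAP kinases, read 14.7, 7.99 and 219 against 3.03, 2.97 and 2.66 FPKM, and Zfp36, which degrades mRNAs rich in AU elements, 32, 20.9 and 309.7 against 8.24, 5.64 and 5.2 FPKM. In each of these genes replicate 3 was above the other 8 libraries of the 3 groups. Ccn1, a matrix protein of the CCN family that is on no list and was picked after its values were seen, had the smallest p of all genes, at 47.8, 36.4 and 210.5 FPKM in F1-HHcy Pd3, 5.4, 4.55 and 6.12 FPKM in F1-control Pd7 and 18.9, 29 and 22.3 FPKM in F1-control Pd3 (3.52 ± 0.57). With replicate 3 left out, Ccn1 became the only gene called in this comparison, with a log2 difference of 2.76 ± 0.18 (SE, limma adjusted p = 0.0115). Klf4 and Atf3 were the members that overlapped (2.44, 1.67 and 16.1 against 1.98, 0.91 and 1.43 FPKM and 6.98, 2.1 and 137 against 4.18, 1.93 and 1.31 FPKM).

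In F1-control Pd3 against F1-control Pd7, 12 of 15 immediate early genes were higher (5.71% of all genes) and 0 lower. The median was 1.61, and Fos was among those higher (3.85, limma adjusted p = 0.000142). A member under 1 FPKM in every F1-control Pd7 library, as Fosb was, could pass the filter of that pair only through F1-control Pd3. Such a member had to be higher. In F1-HHcy Pd3 against F1-control Pd3, 0 of 15 were higher and 0 lower, where 1.58% and 1.26% of all genes were. The median there was 0.96 (Fos 1.27, limma adjusted p = 0.526). Summed over the list, the level was 515, 330.4 and 3894 FPKM in F1-HHcy Pd3, 154, 101 and 90.8 FPKM in F1-control Pd7 and 411, 483 and 400.3 FPKM in F1-control Pd3. In F1-HHcy Pd7 the sum was 114, 83.6 and 522 FPKM, so that replicate 3 of that group was as high as Pd3 libraries and the other two lay within or below the range of F1-control Pd7. In F1-HHcy Pd7 against F1-control Pd7, 0 of 14 genes were higher and 0 lower, where 5.64% and 5.48% of all genes were, with a median of 0.49.

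**Figure D4:**
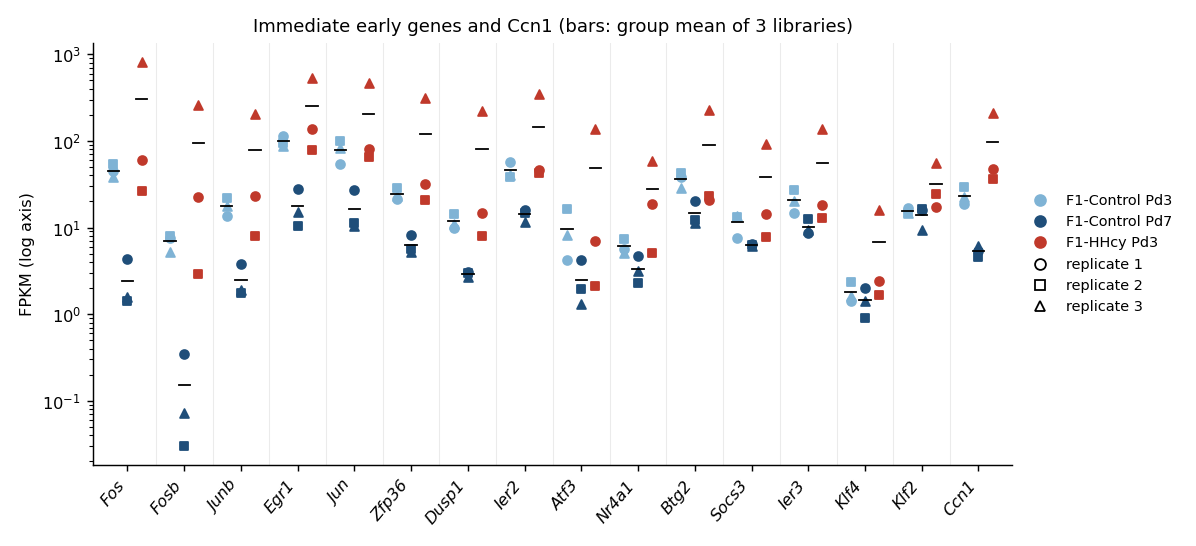
FPKM on a log axis of the 15 tested immediate early genes and of Ccn1 in each library of F1-control Pd3, F1-control Pd7 and F1-HHcy Pd3, with a bar at each group mean of 3 libraries. For Fos the F1-HHcy Pd3 libraries lie at 59.7, 26.6 and 818 FPKM and the F1-control Pd7 libraries at 4.28, 1.41 and 1.58 FPKM, and replicate 3 (triangles) is the highest F1-HHcy Pd3 library for every gene plotted.

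The promoters of 4 of these genes are shown, chosen after their values and matches were seen, because each holds at least 1 of the elements searched for. The windows come from RefSeq on GRCm38.p6 and hold the 250 bases before and the 50 bases after the start of each gene. Capitals mark the bases TGACG, the core of the cyclic AMP response element, the bases TATAAA of a TATA box, and the CArG box bound by serum response factor, each searched on both strands, and TGACG lies within the full element TGACGTCA where that is present. The Fos window is chr12:85473640-85473939 (plus strand), the Dusp1 window chr17:26508423-26508722 (minus strand), the Zfp36 window chr7:28379179-28379478 (minus strand) and the Ccn1 window chr3:145649936-145650235 (minus strand).
Fos: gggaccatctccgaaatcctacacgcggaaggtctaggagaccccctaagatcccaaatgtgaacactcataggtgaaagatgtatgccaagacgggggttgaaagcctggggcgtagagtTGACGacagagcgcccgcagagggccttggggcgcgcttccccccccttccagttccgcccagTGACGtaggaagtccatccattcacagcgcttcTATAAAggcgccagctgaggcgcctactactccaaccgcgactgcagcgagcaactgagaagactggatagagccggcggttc
Dusp1: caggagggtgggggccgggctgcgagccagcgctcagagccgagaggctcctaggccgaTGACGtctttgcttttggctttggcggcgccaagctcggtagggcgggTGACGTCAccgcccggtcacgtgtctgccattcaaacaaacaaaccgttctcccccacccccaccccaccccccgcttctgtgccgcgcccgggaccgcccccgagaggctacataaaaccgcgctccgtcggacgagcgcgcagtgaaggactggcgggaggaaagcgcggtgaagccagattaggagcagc
Zfp36: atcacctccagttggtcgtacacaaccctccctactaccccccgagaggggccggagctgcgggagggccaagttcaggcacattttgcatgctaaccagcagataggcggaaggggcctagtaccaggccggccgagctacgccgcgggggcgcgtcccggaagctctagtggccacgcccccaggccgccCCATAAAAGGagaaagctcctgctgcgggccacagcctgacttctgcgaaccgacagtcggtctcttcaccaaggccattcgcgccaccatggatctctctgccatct
Ccn1: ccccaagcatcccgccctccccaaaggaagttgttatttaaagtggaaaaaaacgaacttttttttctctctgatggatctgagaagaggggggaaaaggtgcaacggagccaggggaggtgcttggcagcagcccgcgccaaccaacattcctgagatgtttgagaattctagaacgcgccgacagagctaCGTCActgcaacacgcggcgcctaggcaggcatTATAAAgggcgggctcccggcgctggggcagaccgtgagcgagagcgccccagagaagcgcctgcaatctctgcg

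Fos and Ccn1 hold both TGACG and TATAAA, Dusp1 holds the full TGACGTCA, and Zfp36 holds a CArG box. Of the 15 tested immediate early genes 13 had a window, in which TGACG was found for 9, TGACGTCA for 2, TATAAA for 2 and a CArG box for 1. Among all 32851 windows of 27025 genes, 20.8% held TGACG, 1.79% TGACGTCA, 13.6% TATAAA and 1.63% a CArG box. A match describes the letters of the window only, and binding was not measured.

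Smooth muscle and pericyte genes had differences mostly below 0, and their size turned on replicate 3 of F1-HHcy Pd3. The median of 14 tested genes was -0.56, 11 lay below 0, and 0 passed, with 3 past the unadjusted threshold where 0.318% of all genes were and 3 without overlap where 2.35% of all genes were. Actg2, the enteric actin of smooth muscle, read 26.2, 21.9 and 1.76 FPKM in F1-HHcy Pd3 and 37.9, 32.7 and 68.7 FPKM in F1-control Pd7 (-1.91 ± 0.80). Cnn1, or calponin, which binds actin in the contractile apparatus, read 12.1, 11.1 and 1.52 against 17.6, 14.8 and 24.3 FPKM (-1.41 ± 0.58). Tagln and Acta2, markers of smooth muscle cells and the most abundant of the list, read 136, 122 and 25.4 against 143, 182 and 197 FPKM and 193, 121 and 31.7 against 140.4, 178 and 315 FPKM. Des, the muscle intermediate filament, read 5.54, 4.8 and 2.24 against 9.03, 5.32 and 13.5 FPKM (-0.97 ± 0.36). In each of these genes replicate 3 was the lowest library, and its values lay below the F1-control Pd3 range (32.9, 38.9 and 57.5 FPKM for Acta2 and 5.23, 3.39 and 6.8 FPKM for Actg2).

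Without replicate 3 the median of the list was -0.15, and the differences were -0.85 for Actg2, -0.63 for Cnn1, -0.41 for Tagln, -0.38 for Acta2 and -0.66 for Des. Pdgfrb, a receptor of pericytes and stroma, went the other way (13.6, 11.4 and 12.1 against 12.3, 7.09 and 9.65 FPKM, 0.35 ± 0.20). Between the control ages 9 of 13 genes were lower at Pd3 (6.05% of all genes) and 0 higher. Replicate 3 was thus the lowest of its group for smooth muscle and growing oocyte genes and the highest for immediate early genes, and the part of one in the others was not tested.

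**Figure D5:**
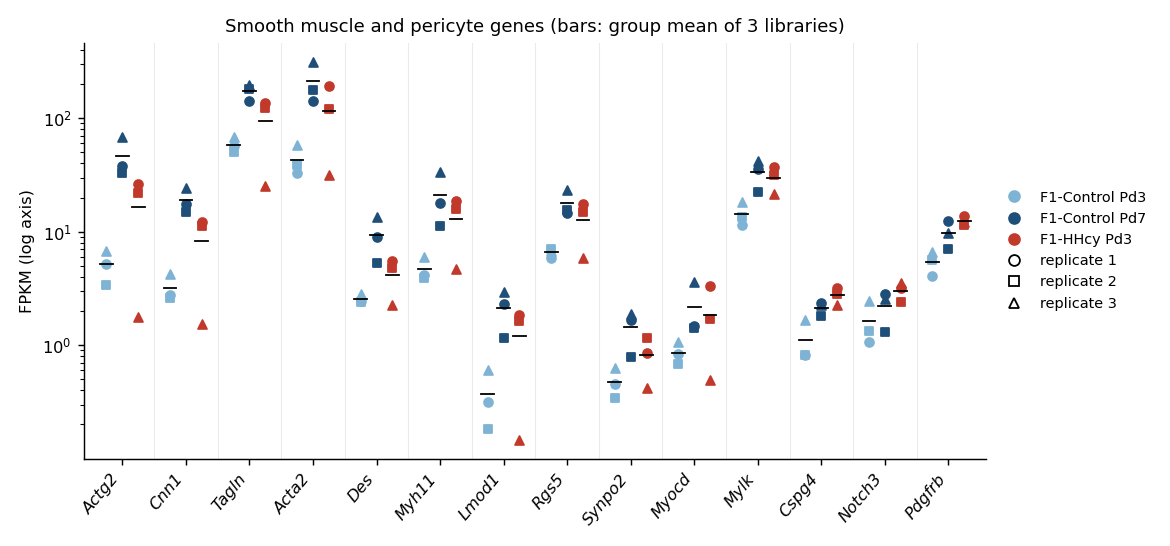
FPKM on a log axis of the 14 smooth muscle and pericyte genes in each library of F1-control Pd3, F1-control Pd7 and F1-HHcy Pd3, with a bar at each group mean of 3 libraries. For Actg2 replicate 3 of F1-HHcy Pd3 lies at 1.76 FPKM, below the F1-control Pd3 libraries, and the other two lie at 26.2 and 21.9 FPKM, below the F1-control Pd7 libraries.

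Endothelial markers had a median of -0.08 over 14 tested genes (0.08 without replicate 3 of F1-HHcy Pd3). Surface epithelium markers had one of -0.19 over 14 (-0.37 to -0.02 when 1 library was left out), and 0 of either list passed. Egfl7 (24.6, 22.7 and 14.4 against 25.9, 27.2 and 23.9 FPKM) and Emcn (29.3, 23.5 and 10.7 against 21, 28.6 and 25.5 FPKM), which mark blood vessels, were lowest in replicate 3 of F1-HHcy Pd3. Kdr, the main receptor of VEGF, was highest in the same library (10.1, 10.6 and 20.1 against 13.5, 7.33 and 9.86 FPKM). Pecam1 differed by -0.18 ± 0.20, and Cldn5 (-0.47 to 0.26), Robo4 (-0.28 to 0.43) and Sox17 (-0.50 to 0.39) had intervals within 0.58. Krt19, a keratin of the ovarian surface, read 138, 235 and 93.4 against 228, 313 and 162 FPKM, and Upk3b 138, 178 and 96.4 against 184, 154 and 127 FPKM. Krt7 (-0.57 ± 0.29), Upk1b (-0.82 ± 0.49) and Aldh1a2 (-0.33 ± 0.25) had the smallest p of the surface list with Krt19.

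Blood cell RNA varied widely between libraries of a group. Erythroid markers had a median of -1.17 over 7 tested genes, all below 0, and 0 passed. Hba-a2, an alpha globin gene, read 70.0, 53.1 and 35.3 FPKM in F1-HHcy Pd3 and 581, 116 and 60.7 FPKM in F1-control Pd7, and Hbb-bs, a beta globin gene and the most abundant, 510.3, 620.2 and 411 and 2887, 899.6 and 574 FPKM. The globin genes are near-identical copies whose fragments can be split between them. Without replicate 1 of F1-control Pd7 the median of the list was -0.25. Alas2, the first enzyme of heme synthesis in red cells, read 6.03, 7.46 and 8.35 against 42.9, 8.82 and 8.78 FPKM. Against F1-control Pd3, 14 of 14 erythroid genes were lower in F1-HHcy Pd3, where 1.26% of all genes were. Only 7 of the 14 passed the filter in the comparison made here. The others passed it in that pair with the F1-control Pd3 libraries, where the list was high, so that the filter bore on their direction.

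Granulocyte markers (5 tested of 11) had a median of -1.51, and of -2.94 to -0.58 when 1 library was left out. S100a8 read 3.24, 2.49 and 42 against 119, 5.77 and 35.5 FPKM and S100a9, its partner in calprotectin, 5.48, 6.12 and 76.3 against 161, 9.12 and 49 FPKM. High and low libraries occurred in both groups. Macrophage markers had a median of -0.21 over 11 tested genes (-0.26 to -0.09 when 1 library was left out), with Lyz2 at 48, 58.8 and 39.3 against 79, 55.4 and 51.6 FPKM and C1qb at 8.97, 11.4 and 7.7 against 13.1, 18.8 and 10.3 FPKM. C1qc (-0.42 ± 0.26) and C1qa (-0.34 ± 0.21) followed, and the intervals of Csf1r (-0.46 to 0.37) and Mrc1 (-0.45 to 0.45) lay within 0.58. Multiciliated and oviduct markers had a median of 0.04 over 8 tested genes and adipocyte markers one of -0.11 over 3, or -0.13 and 0.13 without replicate 3 of F1-HHcy Pd3. No member of these lists passed.

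Of the 42 genes lower at the unadjusted threshold, 6 are given here, picked after their values were seen and on no list. H2-Ab1, a chain of the MHC class II molecule, read 1.69, 3.18 and 1.12 FPKM in F1-HHcy Pd3 and 6.46, 3.6 and 5.73 FPKM in F1-control Pd7 without overlap (-1.09 ± 0.29), with 1.74, 2.55 and 2.2 FPKM in F1-control Pd3. H2-Eb1, a chain of another MHC class II molecule, read 2.56, 3.07 and 1.25 against 3.76, 3.44 and 4.68 FPKM. Cd74, the invariant chain, read 4.07, 6.23 and 5.9 against 12.4, 5.72 and 11.2 FPKM. H2-K1, of MHC class I, read 65.6, 109.9 and 43.4 against 124, 126 and 97.9 FPKM. Il17d, a cytokine, had the smallest p of these 42, at 2.57, 3.49 and 2.71 against 4.91, 5.93 and 5.03 FPKM (-0.68 ± 0.16), and it differed by -0.65 without replicate 3. Isg15, a ubiquitin-like protein induced by interferon, overlapped (2.01, 2.55 and 2.11 against 7.93, 6.1 and 2.1 FPKM) and read 16.2, 12.3 and 14.5 FPKM in F1-control Pd3. Cd74 and H2-K1 overlapped between the groups compared as well. None of these passed the adjusted test.

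Among the genes higher at the unadjusted threshold outside the immediate early list were also Amotl2, an angiomotin that binds YAP (16.4 ± 3.14 against 8.52 ± 1.95 FPKM, SD, n = 3 each, 0.87 ± 0.20), Smad6, an inhibitor of BMP signalling (3.1, 3.66 and 4.16 against 2.18, 1.82 and 2.1 FPKM, 0.61 ± 0.16), and Fxyd3, a regulator of the sodium pump (3.79, 3.57 and 6.59 against 1.39, 2.16 and 1.67 FPKM, 1.01 ± 0.23). These too were picked after their values were seen. None of the 3 overlapped, and without replicate 3 they differed by 0.73, 0.53 and 0.78. Mitochondrially encoded genes had a median of -0.16 (-0.32 to -0.00 when 1 library was left out) over 13 genes and 0 calls, with COX1, a subunit of cytochrome c oxidase, at 11719, 10254 and 9727 against 11583, 14772 and 10888 FPKM.

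For 1 gene alone, 3 libraries against 3 allow no two-sided exact permutation p below 0.1, so the statements above rest on the fit across all genes. The p-values measure only the spread between libraries, which may be partly technical.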

How the data were processed

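Whole-ovary RNA of F1 females was sequenced as poly-A selected, stranded libraries, 3 per group. Per the labels, the authors' processing notes name FastQC 0.11.9, Trimmomatic 0.39, STAR 2.7.9a, featureCounts 2.0.1, DESeq2 1.36.0 and GRCm38 (mm10). The deposited values are FPKM, 1 per gene symbol and library, for 30172 genes, read as normalized by the authors for length and depth. Of 27294 genes above 0 in at least 3 libraries, all came out as whole fragments within 0.02 after scaling, and these served for depth and for limma-voom.

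Genes that reached 1 FPKM in 3 or more of the 6 libraries were tested on log2(FPKM + 1) with limma 3.58.1 (R 4.3.3, mean-variance trend), F1-HHcy Pd3 minus F1-control Pd7. A log2 difference on this scale understates the difference of low genes. Calls needed a Benjamini-Hochberg adjusted p under 0.05 over all genes and a log2 difference above 0.58. The members, the 22 gene lists (441 symbols, 440 found, 17 under another name) and the tests were chosen with earlier results of these data known. No p was adjusted over a list. Genes were named by rule: the 12 largest called differences in each direction without overlap and with a mean of at least 5 FPKM in the higher group (0 genes), per list the 4 smallest p, the 2 most abundant and the 3 narrowest intervals within 0.58, ligands with their receptors, and Foxo3, Akt1, Mtor and Rps6; others are marked in the text, and a few genes that the rule names are not reported here. Replicate numbers did not pair the libraries. On simulated data with 200 altered genes among 13222, the fit called 129 of them at a log2 difference of 0.8 and 197 at 1.5. It also called 0 and 6 of the unaltered genes. How many differences of these sizes the fit would call in the deposited libraries was not tested. There the 15 tested immediate early genes had a median log2 difference of 2.57 and 0 calls. Alternatives were the pseudocount, the filter, the scaling, the pairing, the libraries in the fit, the threshold, limma-voom and leaving out each library. Tables were made with pandas 2.3.3 and numpy 2.4.6 under Python 3.11.15, and figures with matplotlib 3.10.9.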

Additional observations from a re-analysis of the deposited data

How the results depend on the processing

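By limma, 0 genes were called higher or lower under the pseudocount of 0.1, without a filter on low values, under median-ratio scaling, without mitochondrially encoded and hemoglobin genes, with a replicate block, with 12 libraries in one model, by limma-voom and when each library was left out in turn, except that Ccn1 was called higher without replicate 3 of F1-HHcy Pd3 (counts from 0 to 1 higher and 0 to 0 lower over the left-out libraries). At an unadjusted p under 0.05 and a log2 difference above 0.58 there were 35 higher and 42 lower genes, from 13 (without replicate 2 of F1-control Pd7) to 241 (without replicate 1 of F1-control Pd7) higher and 24 to 152 lower when a library was left out, 84 and 68 in the model of 12 libraries, and 53 and 32 by limma-voom. Genes with a 95% interval within 0.58 numbered 6338, 18966 of 27725 without a filter, and 3183 to 7922 when a library was left out. They numbered 4504 with the pseudocount of 0.1 and 4404 by limma-voom. Same-numbered libraries deviated with correlations of -0.389, 0.208 and -0.296, so the numbers pair nothing, and the replicate block gave 0 calls, 68 higher and 76 lower genes at the unadjusted threshold and 4413 genes within 0.58. Genes without overlap numbered 602 higher and 311 lower, and 514 and 384 under median-ratio scaling. Of 285 list medians 3 and of 2771 gene differences 45 moved by more than the SD between replicates, and a change of sign within that SD was not counted. The gene moves fell under limma-voom (26) and the pseudocount of 0.1 (19). The list moves were 1 each under these settings and without replicate 3 of F1-control Pd7. The open filter, the replicate block and the model of 12 libraries leave each difference as it was, so no move was possible there. Why values moved was not tested. With no filter, the smallest adjusted p was 0.0728, with 583 genes at an unadjusted p under 0.05.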
